A study of Mus musculus with 2 samples.

Results

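Semaphorins, plexins and neuropilins form a family of guidance ligands and their receptors, and their transcripts are described here from RNA-seq of mouse splenic γδ T cells, with 2 libraries in all. The members were taken by gene symbol and comprise the semaphorins of classes 3 to 7, the plexins of classes A to D, and neuropilins 1 and 2. Of 24091 genes in the deposited count table, 31 met this rule, 20 of them semaphorins, 9 plexins and 2 neuropilins. The symbols Nrp, a neural regeneration protein, and Plxna4os1, an opposite-strand transcript, were not members. The family was proposed with the difference between these same libraries already known, so the values below are a description and none was tested. One library was labelled freshly isolated and the other IL-2 expanded. γδ T cells are T lymphocytes with a receptor made of γ and δ chains. The labels' protocols describe sorted cells stimulated through CD3 on the plate and CD28 in solution, with recombinant mouse interleukin 2 (IL-2) at 100 U/ml for 5 days. That wording is attached to both libraries, and the freshly isolated one was taken to be uncultured because its treatment label and the design text say so. On that reading, receptor stimulation, culture and IL-2 all separate the libraries and cannot be told apart. The sources used here do not give strain, age, sex or the number of animals.

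Semaphorins are ligands defined by a shared sema domain. Class 3 members are secreted, classes 4, 5 and 6 span the membrane, and Sema7a is held by a glycolipid anchor. Plexins are their main signalling receptors and act on small GTPases and the cytoskeleton through a cytoplasmic GAP domain. Most class 3 semaphorins need a neuropilin as the binding partner of a plexin, whereas membrane-bound semaphorins bind plexins directly. The family was first known from axon guidance, and several members (Sema3a, Sema4a, Sema4d, Sema6d, Sema7a) are also known for roles in lymphocyte activation and in contacts between T cells and antigen-presenting cells.

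The freshly isolated library held 20379385 counts and the expanded library 22204099. Levels are counts per 1000000 (CPM) after TMM scaling, which corrects the library totals for composition, and 1 count equalled 0.0465 and 0.0476 CPM. Genes at 0 counts could have had a level of up to 0.139 CPM (freshly isolated) or 0.143 CPM (expanded), the equivalent of 3 counts. Folds are ratios of CPM with exact 95% intervals (Clopper-Pearson, conditional on both counts), which cover counting error only because there was 1 library per group. Where a library had 0 counts, the fold is given as at least the lower limit of its interval. In total RNA from sorted cells, fewer cells of a type and less RNA per cell cannot be told apart. The CD3 chain genes Cd3e, Cd3d, Cd3g and Cd247, which mark T cells, summed to 2231 CPM before and 2094 CPM after expansion. Within that sum Cd247 (447 and 243 CPM) and Cd3e (734 and 688.5 CPM) were lower. Cd3d (353 and 419 CPM) and Cd3g (698 and 743 CPM) were higher. The constant genes of the receptor chains were not analysed here.

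Ligand transcripts were higher and receptor transcripts lower in the expanded library when each was summed. The 20 semaphorins together had 865 CPM in the freshly isolated library against 1335 CPM in the expanded one, a 1.54-fold higher level (interval 1.51 to 1.57). The 11 plexins and neuropilins stood at 181 and 122 CPM, 1.49-fold lower (interval 1.42 to 1.57). Most of that difference came from 1 gene, Plxnc1, at 58.2 and 7.94 CPM. Plxnd1, Plxna1 and Nrp1 were higher in the expanded library, so the lower sum does not describe every receptor. Per kilobase of gene length, the ligands outweighed the receptors by a ratio of 8.10 in freshly isolated cells and of 17.7 after expansion. Plexins are long transcripts, so the length correction matters when ligands are set against receptors.

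Of the 31 members, 21 reached 1 CPM on average over the pair of libraries. The other 10 are accounted for by their counts below. Among the 21, 6 were higher by 4-fold or more after expansion, where 8.92% of all 11715 genes with that mean level were. Another 6 were lower by 4-fold or more, where 13.5% of all genes were. All 6 higher members were ligands (Sema3a, Sema3d, Sema3f, Sema6b, Sema6d and Sema7a). The 6 lower ones comprised 2 of 13 ligands (Sema4g and Sema6c) and 4 of 8 receptors (Nrp2, Plxna3, Plxnb1 and Plxnc1). At the 2-fold limit, 8 members were higher and 8 lower, against 22.4% and 25.0% of all genes. The median log2 ratio of expanded to freshly isolated cells was 1.93 for the 13 ligands, -2.14 for the 8 receptors, 0.31 for all 21 members and 0.035 for all genes. The median of all members lay between those of ligands and receptors, and with a limit of 0.5 CPM, or none beyond 1 count, it was -0.13. The ligand median was 1.246 under both, and the receptor median was -1.429 at 0.5 CPM and -0.565 without a limit. Many of the members 4-fold apart passed the 1 CPM limit only through the library where they were high. Sema3a, Sema3d, Sema3f and Sema6b were under 1 CPM in freshly isolated cells. Sema4g, Sema6c, Nrp2, Plxna3 and Plxnb1 were under it in expanded cells.

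**Figure D1:**
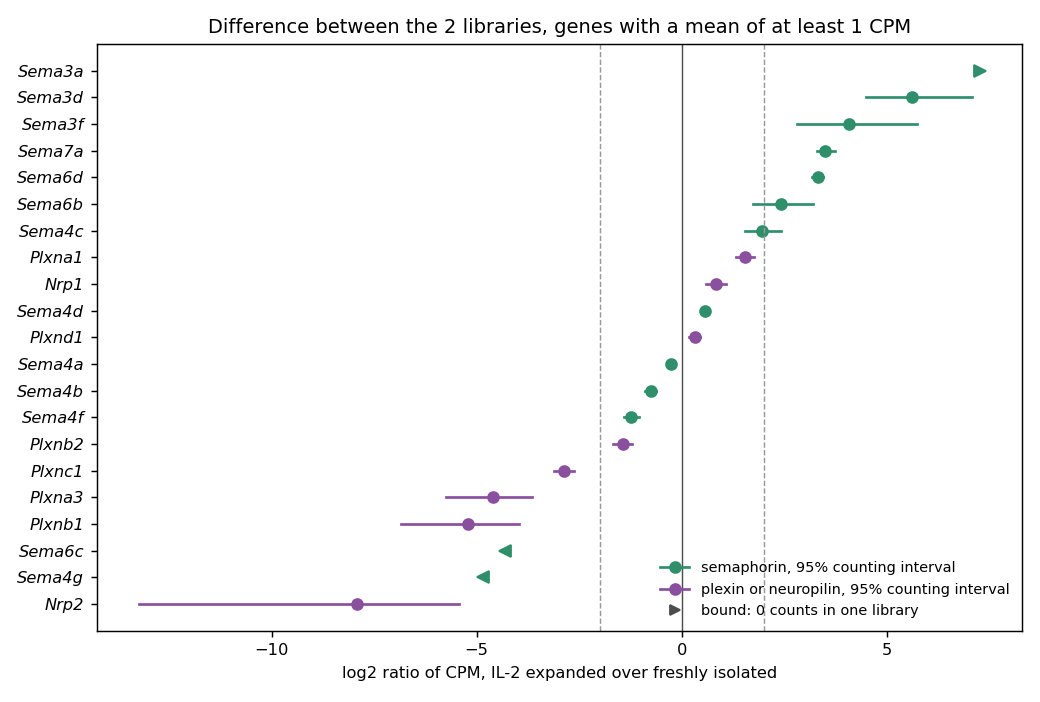
Log2 ratio of CPM, IL-2 expanded over freshly isolated, for the 21 members that reach an average of 1 CPM (horizontal axis), with 1 row per gene. Points are plain ratios with 95% counting intervals, and dashed lines mark 4-fold. Triangles are drawn where one library had 0 counts, at the ratio to its 3-count level. The 7 highest rows are semaphorins, and 4 receptors lie beyond 4-fold on the lower side.

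Sema4d, also called CD100, was the most abundant member in both libraries. It is a transmembrane ligand known on resting and activated T cells, and binds plexin B1 and, on lymphocytes, CD72. Sema4d (chromosome 13, 51701248 to 51793747, build GRCm38) had 9729 counts (452 CPM) in the freshly isolated and 14064 counts (669 CPM) in the expanded library, 1.48-fold higher (interval 1.44 to 1.52). Per kilobase it ranked 521 and 443 among all 24091 genes. It made up 48.3% of the summed per-kilobase semaphorin level in freshly isolated cells and 50.9% in expanded cells. Its share of the semaphorin transcripts therefore differed little between the libraries.

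Sema4a, a ligand known for costimulation of T cells, was the second most abundant member in the freshly isolated library. It stood at 276 CPM there (5936 counts) and at 229 CPM in the expanded library (4813 counts), 1.20-fold lower (interval 1.16 to 1.25). Its share of the summed per-kilobase semaphorin level was 39.3% in freshly isolated and 23.2% in expanded cells. Sema4b, a related class 4 ligand, had 1172 and 679 counts (54.5 and 32.3 CPM), 1.69-fold lower. Sema4f had 834 and 348 counts (38.8 and 16.6 CPM), 2.34-fold lower (interval 2.06 to 2.66). Through these 4 genes, class 4 made up most of the semaphorin transcripts. The 6 genes of the class summed to 828 and 957 CPM.

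**Figure D2:**
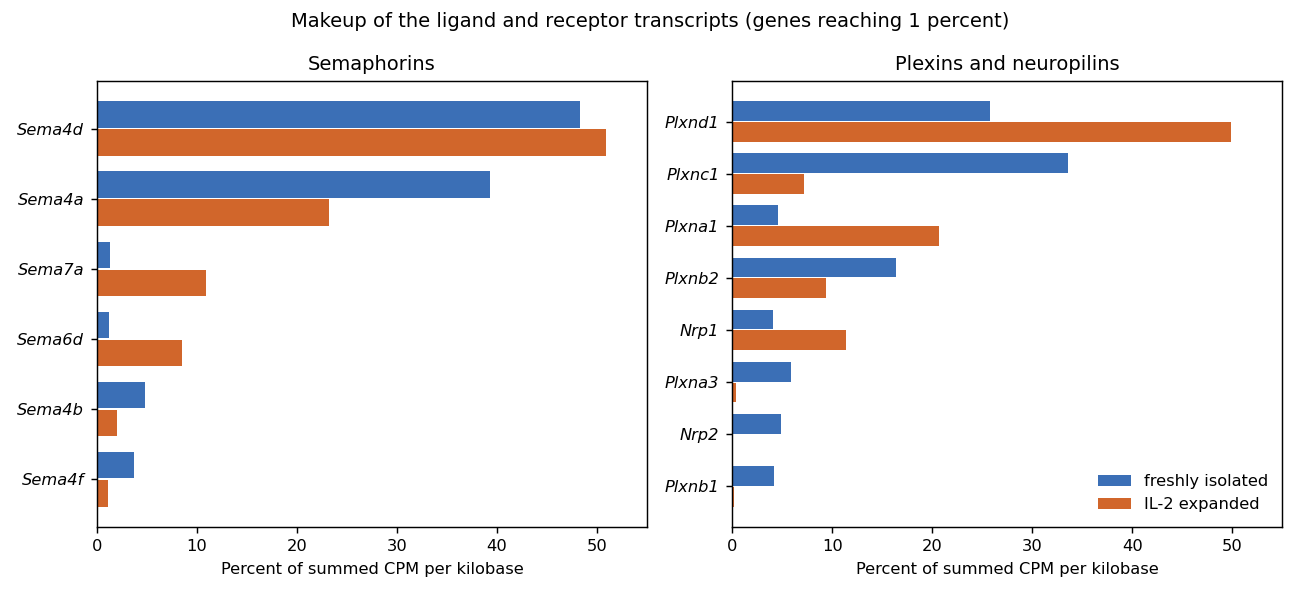
Percent of the summed CPM per kilobase (horizontal axis) that each gene contributes within the semaphorins (left) and within the plexins and neuropilins (right), for genes reaching 1% in either library. Bars are single libraries without error. Sema7a and Sema6d reach 10.9% and 8.52% of the semaphorin level in expanded cells, and Plxnd1 reaches 49.9% of the receptor level.

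Sema7a and Sema6d were the abundant ligands furthest up. Sema7a, a glycolipid-anchored ligand that binds plexin C1 and α1β1 integrin, is known as an effector molecule on activated T cells. Sema7a (chromosome 9, 57940135 to 57962865) had 190 counts (8.83 CPM) in the freshly isolated and 2106 counts (100.2 CPM) in the expanded library, 11.35-fold higher (interval 9.78 to 13.2). Per kilobase its rank among all genes was 9125 in freshly isolated and 2575 in expanded cells. Sema6d, a transmembrane ligand of plexin A1 that is known to act late in T cell responses, had 501 counts (23.3 CPM) and 4869 counts (231.6 CPM), 9.95-fold higher (interval 9.08 to 10.9). In the expanded library Sema6d therefore stood at about the CPM of Sema4a, but at 23.9 CPM per kilobase against 65.3, since its transcript is longer.

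Sema6b and Sema4c were also higher, at lower levels. Sema6b, a class 6 ligand of A-type plexins, had 20 and 105 counts (0.929 and 4.99 CPM), 5.38-fold higher (interval 3.31 to 9.16). Sema4c, a ligand of plexin B2, had 57 and 217 counts (2.65 and 10.3 CPM). At 3.90-fold (interval 2.90 to 5.32), Sema4c lay just inside the 4-fold limit, and Sema6b was the member just beyond it.

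Class 3, the secreted semaphorins, was nearly unread in freshly isolated cells. All 7 genes together had 12 counts there and 855 in the expanded library. Sema3a, known best as a repellent of axons, signals through neuropilin 1 and A-type plexins. It had 0 counts in the freshly isolated and 456 counts (21.7 CPM) in the expanded library, at least 126-fold higher. Sema3d, another secreted neuropilin ligand, had 6 and 289 counts (0.279 and 13.7 CPM), 49.3-fold higher (interval 22.4 to 135.5). Sema3f, the main ligand of neuropilin 2, had 5 and 83 counts (0.232 and 3.95 CPM), 17.0-fold higher (interval 7.0 to 53.7). Sema3e, which binds plexin D1 without a neuropilin, had 0 and 17 counts, at least 4.225-fold higher. Sema3c had 0 and 10 counts, at least 2.295-fold higher. Sema3b had 1 count and 0, and Sema3g had none in either library. The expanded levels remained modest, at 2.33 CPM per kilobase for Sema3a against 143 for Sema4d.

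The class 3 genes that were higher were mostly neighbours on the chromosome. Sema3d, Sema3a, Sema3e and Sema3c lie in this order on the plus strand of chromosome 5 between 12383166 and 17730267 (GRCm38), a span of 5.35 Mb. The deposited table lists 21 genes in that span, so that 17 others lie among these 4. Only 2 of the 17 had any count. Hgf, the hepatocyte growth factor gene, had 42 counts in the freshly isolated and 5 in the expanded library, and Pclo had 1 and 0. None of the 17 had more counts in the expanded library. The other 15 had no reads in either library, among them Cacna2d1, which encodes a calcium channel subunit. Sema3f lies elsewhere, on chromosome 9.

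**Figure D3:**
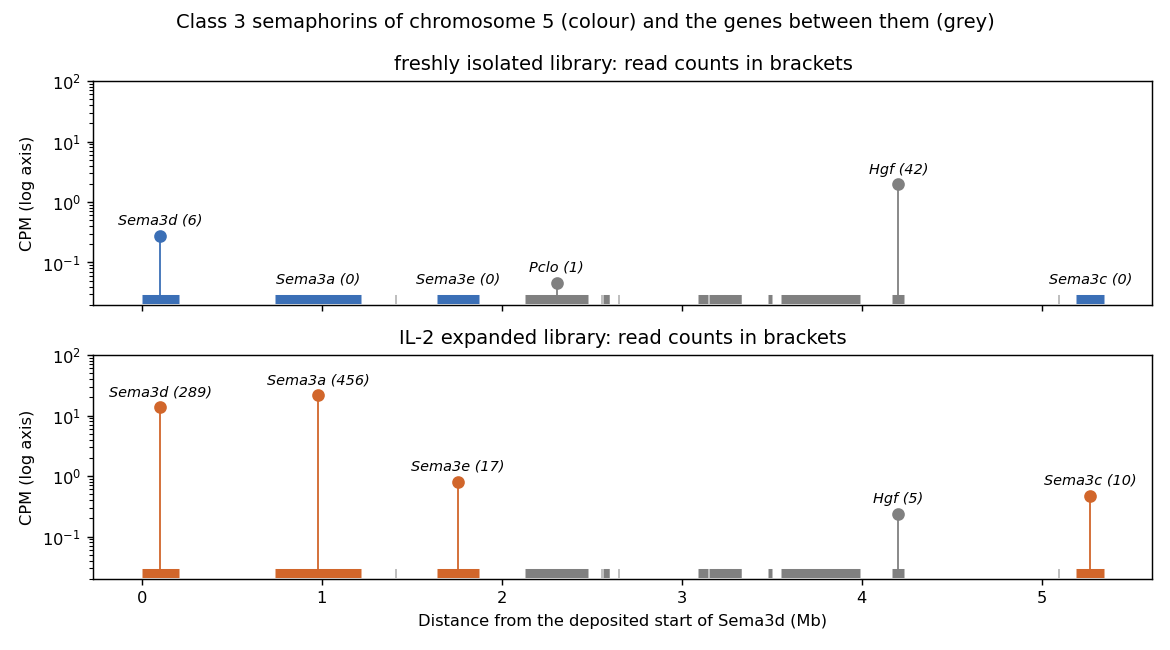
CPM on a log axis (vertical) against distance in Mb from the deposited start of Sema3d (horizontal), in the freshly isolated library (top) and the IL-2 expanded library (bottom). Blocks are gene spans, coloured for semaphorins and grey for the other 17 genes, stems show genes with at least 1 count, and read counts are in brackets. All 4 semaphorins have counts in the expanded library, and of the genes between them only Hgf does, at 5.

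The starts of the pair with the most counts are shown for their sequence context, since both were near 0 in freshly isolated cells. Each window is from RefSeq (GRCm38.p6), runs from 250 bases before to 50 after an annotated start, and is written 5′ to 3′ on the plus strand, on which both genes lie. Capitals mark matches to any of 5 motifs described with the other windows below. The Sema3d window (chr5:12382916-12383215) is 49.7% G or C with 8 CpG dinucleotides and holds no match. The Sema3a window (chr5:13396534-13396833) is 41.3% G or C with 2 CpG and holds 1 match, to the RUNX letters. It lies inside the deposited span of Sema3a (13125414 to 13603485) and not at its start, and the deposited span begins upstream of it.
Sema3d: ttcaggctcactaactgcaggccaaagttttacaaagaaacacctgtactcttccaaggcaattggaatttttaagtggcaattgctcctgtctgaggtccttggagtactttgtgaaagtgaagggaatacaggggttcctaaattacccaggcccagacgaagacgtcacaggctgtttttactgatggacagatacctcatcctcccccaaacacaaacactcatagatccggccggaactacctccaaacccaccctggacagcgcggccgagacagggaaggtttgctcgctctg
Sema3a: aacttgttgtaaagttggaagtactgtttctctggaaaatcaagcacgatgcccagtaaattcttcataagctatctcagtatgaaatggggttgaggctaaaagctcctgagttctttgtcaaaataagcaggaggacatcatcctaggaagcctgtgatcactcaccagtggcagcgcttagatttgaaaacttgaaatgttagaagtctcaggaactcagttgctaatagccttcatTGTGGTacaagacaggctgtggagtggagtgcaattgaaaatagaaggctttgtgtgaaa

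A pair of transmembrane ligands was read in freshly isolated cells and listed at 0 in expanded cells. Sema4g, a class 4 semaphorin, had 88 counts (4.09 CPM) and 0, at least 22.8-fold lower. Sema6c, a class 6 semaphorin, had 61 counts (2.83 CPM) and 0, at least 15.7-fold lower. Within classes 4 and 6 the members thus differed in direction, with Sema4c, Sema6b and Sema6d higher and Sema4g and Sema6c lower. Sema6a had 24 and 11 counts, below the limit at a mean of 0.819 CPM. Sema5a had 5 and 0 counts, and Sema5b had none.

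**Figure D4:**
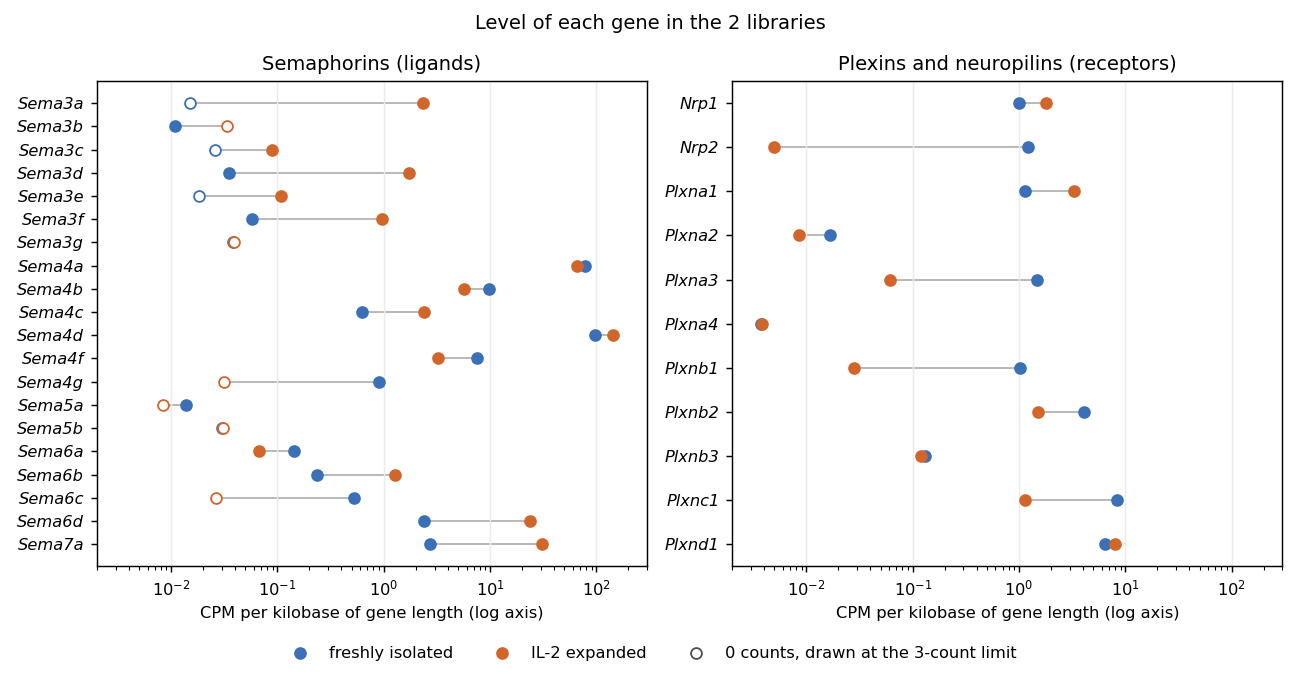
CPM per kilobase of gene length on a log axis (horizontal) for all 20 semaphorins (left) and all 11 plexins and neuropilins (right), with 1 point for each library. Open circles mark 0 counts and are drawn at the level that 3 counts would give. Sema4d and Sema4a lie furthest right in both libraries, and Sema3a, Sema3d and Sema3f lie far apart between them, whereas Sema3b, with 1 count and 0, does not.

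Among the receptors, plexin D1, plexin A1 and neuropilin 1 were higher in the expanded library, none by 4-fold. Plxnd1, a receptor of Sema3e and of Sema4a, was the most abundant receptor by mean CPM. Its counts were 942 (43.8 CPM) before and 1143 (54.4 CPM) after expansion, 1.24-fold higher (interval 1.14 to 1.36). Plxna1, the Sema6d receptor that also pairs with neuropilin 1, had 219 and 622 counts (10.2 and 29.6 CPM), 2.91-fold higher (interval 2.49 to 3.41). Nrp1 (chromosome 8, 128359073 to 128505475) had 218 and 382 counts (10.1 and 18.2 CPM), 1.79-fold higher (interval 1.51 to 2.13). Nrp1 is also known as a marker of regulatory T cells, and their defining factor Foxp3 had 26 and 38 counts in the same libraries. The part of such cells in the Nrp1 level was not tested.

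The other measured receptors were lower. Plxnc1, the plexin of Sema7a (chromosome 10, 94790866 to 94944578), had the highest receptor level in freshly isolated cells, at 1252 counts (58.2 CPM). It had 167 counts (7.94 CPM) in expanded cells, 7.32-fold lower (interval 6.23 to 8.66). Its share of the summed per-kilobase receptor level was 33.6% in freshly isolated and 7.14% in expanded cells, whereas that of Plxna1 was 4.58% and 20.7%. Plxnb2, a receptor of class 4 semaphorins, had 588 and 212 counts (27.3 and 10.1 CPM), 2.71-fold lower (interval 2.31 to 3.18).

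Plxnb1, Plxna3 and Nrp2 were close to unread in expanded cells. Plxnb1, the high-affinity receptor of Sema4d (chromosome 9, 109095436 to 109119915), had 190 counts (8.83 CPM) and 5 counts, 37.1-fold lower (interval 15.6 to 115.6). Plxna3, an A-type plexin that works with neuropilins, had 222 counts (10.3 CPM) and 9 counts, 24.1-fold lower (interval 12.5 to 53.4). Nrp2, the neuropilin of Sema3f (chromosome 1, 62703317 to 62818692), had 249 counts (11.6 CPM) and 1 count, a ratio of 243 with a counting interval from 43.25 to 9643. In freshly isolated cells the neuropilins were at similar levels, 1.01 CPM per kilobase for Nrp1 and 1.21 for Nrp2, while in expanded cells nearly all neuropilin reads were of Nrp1. Of the receptors under the 1 CPM limit, Plxnb3 had 17 and 15 counts (mean 0.752 CPM), Plxna2 had 4 and 2, and Plxna4 had 1 and 1. Sema6c, at a mean of 1.42 CPM, was the member just above that limit, and Sema6a the member just below it.

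Most marker lists of other spleen cells were lower in the same library as these receptors. Of 18 monocyte and macrophage markers, 15 were lower by 4-fold or more after expansion, where 13.5% of all genes were. The list summed to 1235 and 90.5 CPM, 13.65-fold lower. Hmox1 (119.3 and 63.0 CPM) and Cd68 (38.3 and 20.7 CPM) were within 2-fold and carried most of the second sum. In the expanded library 11 of the 18 were at 0, including Vcam1, Sirpa and C1qa, and the defining markers Csf1r and Adgre1 had 1 and 2 counts. All 9 measured B and plasma cell markers of 11 were at least 4-fold lower, with a sum of 930.3 and 4.0 CPM. Jchain, the joining chain of secreted antibodies, gave 784 CPM of the first sum and had 0 counts after expansion, and without it the sums were 146 and 4.0 CPM. Cd79a and Ms4a1 were at 0 in expanded cells. Of 6 measured dendritic cell markers, 4 were at least 4-fold lower (sum 515 and 21.9 CPM), with Flt3 at 139 and 0 counts. Batf3 of the same list was 3.77-fold higher, at 69 and 254 counts. Endothelial cells also use plexins and neuropilins, and their 8 markers were mixed, with a sum of 178 and 133 CPM. Pecam1, which leukocytes also express, gave most of it (3511 and 2698 counts). Stab2, a marker of sinusoidal endothelium, had 253 and 2 counts, Vwf had 56 and 20, and Egfl7 had 4 and 70. Cdh5 had 4 and 0 counts, and Tek, Emcn and Lyve1 were at 0 in each library. Erythroid (88.1 and 0.0951 CPM) and platelet markers (5.81 and 0.381 CPM) were also lower. Neutrophil markers summed to 11.6 and 17.8 CPM, where all 374 counts in expanded cells were of Ly6g. Stromal markers summed to 5.34 and 0.809 CPM, with Pdgfrb at 105 and 3 counts. NK markers summed to 573.9 and 415.8 CPM, of which Eomes held 370 and 362 CPM, while Ncr1 had 529 and 4 counts. The αβ T cell markers summed to 33.03 and 11.9 CPM, and 3 of 5 were at least 4-fold lower. These were Cd4 at 212 and 7 counts, Cd8b1 at 147 and 13, and Cd40lg at 306 and 0. Cd8a went the other way, at 20 and 192 counts, and Foxp3 was within 2-fold. The part of these cells in the freshly isolated library was not tested for any member. That holds for the lower receptors Nrp2, Plxnb1, Plxna3, Plxnc1 and Plxnb2. It also holds for the lower ligands Sema4a, Sema4b, Sema4f, Sema4g and Sema6c.

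Ligands and receptors known to bind each other were set side by side as levels per kilobase within each library. Sema7a was below Plxnc1 in freshly isolated cells, at 2.71 against 8.29 CPM per kilobase, and above it in expanded cells, at 30.7 against 1.13. The ratio of ligand to receptor was 0.326 in the first and 27.1 in the second. Sema4c and Plxnb2 changed order in the same way, with ratios of 0.153 and 1.61. So did Sema3f and Nrp2, at 0.0474 and 196, although the second ratio rests on 1 Nrp2 count. Sema3a, at 0 counts in freshly isolated cells, stood at 2.33 against 1.81 CPM per kilobase for Nrp1 and 3.29 for Plxna1 in expanded cells. Its order with Nrp1 thus changed by the deposited lengths, but per kilobase of annotated exons Sema3a stayed below Nrp1. The deposited length is 9.32 kb for Sema3a, against 13.868 kb of annotated exons, and 10.049 kb for Nrp1, against 9.785 kb. Sema3e, also at 0 before expansion, stood at 0.107 against 7.91 for Plxnd1. Sema4d exceeded Plxnb1 in both libraries, by a ratio of 93.8 and, with 5 Plxnb1 counts, 5151. Its ratio to Plxnb2 was 23.9 and 95.7, and that of Sema4a to Plxnb2 was 19.4 and 43.65. Sema6d and Plxna1 were both higher in expanded cells, and their ratio was 2.13 and 7.28. Among the 8 pairs with counts of both genes in each library, Sema4a and Plxnd1 differed least, with ratios of 12.35 and 8.25.

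**Figure D5:**
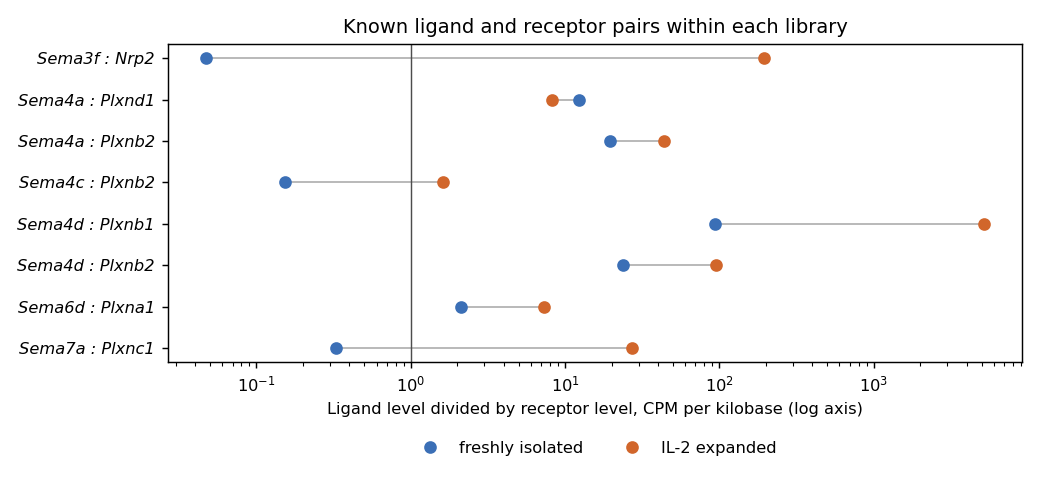
Level of a ligand divided by that of a known receptor, both in CPM per kilobase, on a log axis (horizontal) for 8 of 11 pairs in each library. The other 3, of Sema3a and Sema3e, have a ligand at 0 counts in freshly isolated cells and are not drawn. The vertical line marks equal levels. The pairs Sema7a with Plxnc1, Sema4c with Plxnb2 and Sema3f with Nrp2 lie on opposite sides of it in the 2 libraries, and the Nrp2 and Plxnb1 levels in expanded cells rest on 1 and 5 counts.

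The promoter windows of Sema7a and of its receptor Plxnc1, and those of Plxnb1 and Nrp2, are shown because Sema7a was higher and its receptor lower, and because the other pair of receptors was close to unread after expansion. They were chosen after the values were seen. RefSeq windows (GRCm38.p6) were found for 26 of the 31 members, 37 windows in all. Each sequence is 5′ to 3′ on the gene's own strand, which is plus for Sema7a (chr9:57939862-57940161), Plxnb1 (chr9:109095186-109095485) and Nrp2 (chr1:62703067-62703366) and minus for Plxnc1 (chr10:94944796-94945095). Capitals mark a match on either strand to the letters of STAT (TTCNNNGAA), AP-1 (TGANTCA), RUNX (TGTGGT), the GC box (GGGCGG) or an E-box (CACGTG), and matches can overlap.
Sema7a: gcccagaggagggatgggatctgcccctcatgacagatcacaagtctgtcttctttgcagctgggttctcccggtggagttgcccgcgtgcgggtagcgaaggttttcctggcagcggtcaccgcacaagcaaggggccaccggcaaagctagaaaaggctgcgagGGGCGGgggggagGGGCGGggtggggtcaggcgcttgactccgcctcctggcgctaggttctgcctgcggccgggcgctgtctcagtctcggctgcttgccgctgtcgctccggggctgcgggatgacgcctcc
Plxnc1: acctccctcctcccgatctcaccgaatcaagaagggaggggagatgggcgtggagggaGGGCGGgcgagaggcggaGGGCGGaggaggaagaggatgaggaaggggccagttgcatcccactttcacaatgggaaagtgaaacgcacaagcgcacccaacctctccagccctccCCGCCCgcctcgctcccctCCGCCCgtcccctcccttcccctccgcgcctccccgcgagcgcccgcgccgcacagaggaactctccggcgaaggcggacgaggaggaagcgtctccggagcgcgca
Plxnb1: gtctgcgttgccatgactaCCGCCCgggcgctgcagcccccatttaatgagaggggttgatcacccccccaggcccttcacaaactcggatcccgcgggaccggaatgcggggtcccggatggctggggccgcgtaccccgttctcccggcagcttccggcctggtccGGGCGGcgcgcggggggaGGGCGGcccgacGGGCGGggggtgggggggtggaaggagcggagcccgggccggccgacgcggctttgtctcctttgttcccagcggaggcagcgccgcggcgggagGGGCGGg
Nrp2: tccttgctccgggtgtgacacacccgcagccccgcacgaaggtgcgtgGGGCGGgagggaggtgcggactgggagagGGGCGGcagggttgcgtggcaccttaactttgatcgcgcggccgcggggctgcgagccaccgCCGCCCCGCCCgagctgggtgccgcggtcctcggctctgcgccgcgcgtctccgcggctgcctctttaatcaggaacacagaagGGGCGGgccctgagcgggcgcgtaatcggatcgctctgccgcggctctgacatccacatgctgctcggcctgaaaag

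These 4 windows were rich in G and C, that of the higher Sema7a as well as those of the lower receptors. The share of G or C was 67.3% for Sema7a, 69.0% for Plxnc1, 74.7% for Plxnb1 and 70.7% for Nrp2, against a median of 52.7% over 32851 windows of all genes. The windows of Sema3d (49.7%) and Sema3a (41.3%), also higher in the expanded library, lay below that median. The 4 windows held 23, 30, 36 and 37 CpG dinucleotides, where the median window held 7. GC box letters occurred 2 times in the Sema7a window, 4 times in Plxnc1 and 5 times each in Plxnb1 and Nrp2. Over all member windows, GC box letters were found in 27 of 37 windows, and in 35.7% of the windows of all genes. RUNX letters were found in 5 (16.8% of all genes' windows), AP-1 letters in 3 (7.81%), E-box letters in 3 (7.15%) and STAT letters in 1, that of Sema3e (8.3%). A match describes the letters and not a bound site.

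Other genes of semaphorin signalling went both ways. Of 78 genes in 5 lists of partners, 77 were in the table and 58 reached an average of 1 CPM. Of these, 6 were at least 4-fold higher and 8 at least 4-fold lower, where 8.92% and 13.5% of all 11715 genes at that level were. The partner counts were thus close to the shares over all genes, which are also the background for the single lists below. The median log2 fold of the partners was 0.066, against 0.035 for all genes. Among other receptors, 3 of 7 were at least 4-fold higher and 2 lower. Met, the hepatocyte growth factor receptor that associates with plexins of class B, had 6 and 320 counts (0.279 and 15.2 CPM), 54.6-fold higher (interval 24.8 to 149.9). Itga1, the α1 chain of the integrin that binds Sema7a, stood at 16.8 and 91.3 CPM, 5.44-fold higher, and its partner chain Itgb1 at 451.5 and 582.8 CPM. Sema7a and this receptor were thus both higher, while Plxnc1 was lower. Lilrb4a, an inhibitory receptor, stood at 47.0 and 256.9 CPM. It is counted among the 3 higher genes of this list, but whether it binds a semaphorin was not checked here.

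Cd72, a B cell receptor that binds Sema4d, was at 106 and 7.85 CPM, 13.5-fold lower. The measured B cell markers were lower in the same library, and the part of B cells in the Cd72 level was not tested. Tyrobp, the signalling adaptor in a complex of plexin A1 and Trem2, stood at 53.3 and 7.61 CPM, and Trem2 had 1 count and 0. Erbb2, a further partner of class B plexins, had 33 counts and 1, below the limit of 1 CPM. Timd2, a receptor described for Sema4a, had 1 count and 0.

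The VEGF list, whose ligands also bind neuropilins, had 5 measured members and none 4-fold apart. Vegfa, the main vascular growth factor, stood at 11.7 and 36.4 CPM, 3.11-fold higher. Tgfb1, which also binds neuropilin 1, stood at 171 and 532 CPM, 3.12-fold higher. The neuropilin adaptor Gipc1 stood at 22.8 and 45.6 CPM, and the median of the list was 1.0. The receptor genes Flt1 (24 and 6 counts), Flt4 (7 and 2) and Kdr (6 and 13) were all below the limit.

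Small GTPases and their regulators at plexins had a median log2 fold of 0.066, with 2 of 18 at least 4-fold higher, 2 lower and 12 within 2-fold. Rac1 (280 and 369 CPM), Rhoa (257 and 251.5 CPM) and Rap1b (704 and 750.5 CPM), which act downstream of plexins in many cells, were all within 2-fold. The exchange factors that bind class B plexins went apart. Arhgef11 stood at 16.8 and 2.09 CPM, 8.04-fold lower, and Arhgef12 at 16.6 and 45.5 CPM, 2.74-fold higher. Farp1, an exchange factor known at A-type plexins, was 5.47-fold higher (13.15 and 72.0 CPM). Of the Rnd GTPases, which bind plexin cytoplasmic domains, Rnd1 was 4.75-fold higher at 22 and 102 counts, and Rnd3 was 17.2-fold lower at 141 and 8 counts.

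Among 23 measured kinases and cytoskeletal effectors, 1 was at least 4-fold higher, 3 were lower and 13 lay within 2-fold (median -0.69). The oxidoreductase genes Mical1 (176 and 109 CPM), Mical2 (6.41 and 2.28 CPM) and Mical3 (10.6 and 4.33 CPM), which disassemble actin downstream of plexins, were each lower. The collapsin response mediator Crmp1 (4.88 and 16.5 CPM) was 3.37-fold higher and Dpysl2 (58.95 and 88.1 CPM) 1.49-fold higher. The members furthest apart were Micall2, at 9 and 58 counts, and Pak1, a kinase activated by Rac, at 13.01 and 1.24 CPM. Of 5 measured proteases, Furin, which cleaves class 3 semaphorins to their active forms, was 2.24-fold higher (151 and 337 CPM), and Mmp14, known to shed Sema4d, was 11.1-fold lower (9.52 and 0.856 CPM). Adam10 (199 and 281 CPM) and Adam17 (111 and 120.3 CPM) were within 2-fold.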

How the data were processed

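RNA-seq was run on total RNA of 2 libraries, 1 per group. The authors deposited raw read counts by gene, as whole numbers, with gene spans. Each gene's length in kilobases is a further deposited column. Per the submitters' processing notes, the aligner STAR (2.6.0) and the counter HTSeq (0.6.0) were among the tools, beside bcl2fastq (2.18.0.12) and edgeR (3.28.1). The builds named are mm10 and GRCm38, the same assembly. Settings and strand use are not given in the sources used here, so reads of overlapping genes could not be divided. Exons of Plxna1, Plxna4, Plxnb1, Plxnc1 and Sema4c overlap those of other genes of the GENCODE M21 annotation that the table does not list.

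Scaling used TMM (edgeR 4.0.16, R 4.3.3), with factors of 1.06 (freshly isolated) and 0.947 (expanded). Log2 folds for counts of genes and medians used a prior count of 2. With 1 library per group no p-value was computed. The members and lists were chosen with earlier results of these data known. The text names every member, some of the genes furthest apart in each partner list and the partners of named members. Of the marker lists it names some defining markers and some genes that carry a sum or go against it. The latter genes were chosen after their values were seen. One gene of the B cell list is not reported here. Levels per kilobase use the deposited length, which for members was 0.525 to 1.03 times the union of GENCODE exons. Counts for this comparison (11715 genes) were also simulated with counting error only and no spread between samples. There 199 of 200 genes changed 8-fold were recovered at the 4-fold limit, and 0 unchanged genes were called. The simulation checks the calculation and gives no error rate for differences between samples. Alternatives were other scalings (DESeq2 1.42.0 size factors among them), prior counts and filters.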

Additional observations from a re-analysis of the deposited data

How the results depend on the processing

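Every measured member kept its direction under the 4 other scalings and under prior counts of 0.5 and 5. Scaling by total count moved the median log2 fold of all genes by -0.157, and that of the 21 members was then 0.155. The ratio of the summed ligands, expanded over freshly isolated, was 1.543 as reported. It was 1.383 by total count, 1.469 by upper quartiles, 1.461 by totals that leave out each library's top 50 genes, 1.404 per kilobase of deposited length, 1.483 per kilobase of annotated exons, and 1.611 without Sema4d. The ratio of the summed receptors was 0.6715 as reported, 0.6019 by total count, 0.6359 by totals that leave out those genes, and 0.4898 without Plxnd1. It was not computed without Plxnc1, which held most of the receptor difference.

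The filter on low levels decided the median of all members. It was -0.13 with a limit of 0.5 CPM and with none beyond 1 count, since members with few reads then entered. The ligand median was 1.246 under both, and the receptor median was -1.429 at 0.5 CPM and -0.565 without a limit. At 5 CPM, 3 members were at least 4-fold lower, no ligand among them (0), the receptor median was -1.429, and 992 genes of all were at least 4-fold lower, with fewer genes tested in each case. No paired analysis was possible because each group had 1 library, and for the same reason no library could be left out. Depth limits what can be said of Sema3b, Sema3g, Sema5a, Sema5b, Plxna2 and Plxna4, each with under 10 counts in both libraries.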
